A study of Mus musculus with 60 samples.

Results

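The cytosolic ribosomal protein genes were followed in mouse liver after exposure to 3 heavy ions. They were chosen by gene symbol alone (Rps or Rpl with a number and an optional a or x, Rplp0 to Rplp2, and Rpsa, without pseudogenes), which gave 76 of 38204 genes and 472 of 123811 annotated transcripts. Of these 76, 30 encode proteins of the small ribosomal subunit (Rps genes and Rpsa) and 46 encode proteins of the large subunit (Rpl and Rplp genes).

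Each of these proteins is a building block of the ribosome that translates nuclear-encoded mRNA, and most are needed in equal numbers per ribosome. Their mRNAs are abundant and short, and they carry a tract of C and T at the 5′ end (the terminal oligopyrimidine tract), through which their translation follows nutrient and growth signals. The genes are also marked by many processed pseudogenes, which are intron-less copies of the mRNA elsewhere in the genome, and by small nucleolar RNAs carried in their introns.

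Left liver lobe RNA of male C3H/HeNCrl mice, a strain prone to liver tumours, was sequenced after ribosomal RNA removal at 1, 2, 4, 9 and 12 months. The groups were 56Fe, 16O and 28Si, each a total body dose of 0.2 Gy given at 8 to 10 weeks of age, and non-irradiated control mice kept over the same times. Each of the 20 groups held 3 mice, killed at that time only, so time goes with age, and the 3 controls of a time served all 3 ions. Values are RPKM, the reads on a transcript scaled to its length and to the mapped reads of the library, summed over the transcripts of a gene.

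The 60 libraries held 11413124 to 40564881 mapped reads, as recovered from the steps between low RPKM values. Before any single gene, the libraries fell apart by time: 56.0% to 88.4% of mapped reads lay in annotated transcripts at 4, 9 and 12 months (median 81.1%, n = 36), against 43.4% to 66.4% at 1 and 2 months (median 53.5%, n = 24). The liver identity was clear in every library, with Alb at a median of 26033 RPKM at 9 and 12 months and 16616 RPKM at 1 and 2 months, and no hepatocyte marker of 8 was at 0 in any library. No label names a sequencing run or a preparation date, and the library codes in the titles begin with a letter that follows the ion group and carry numbers whose meaning is not stated. Time, age, collection and any batch therefore cannot be told apart, nor can the ion groups and a batch that followed that letter. In whole-lobe RNA, fewer cells of a type and less RNA per cell cannot be told apart either.

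A C and T tract is described for the mRNAs of this class, so the bases around the start site are shown for 8 members. Each had a C followed by 7 or more C or T. Among members with such a run, Rps15a, Rpl35, Rpl15 and Rpl13a had the largest later over earlier fold changes, and were higher in every group. Rplp2, Rps27, Rps6 and Rpl28 had the smallest, and were not. The 30 bases run 5′ to 3′ from 15 before to 15 after the annotated start (RefSeq, GRCm38.p6), and capitals mark the run of C and T. The run of Rps15a lies wholly before the annotated start and that of Rpl13a wholly after it.
Rps15a: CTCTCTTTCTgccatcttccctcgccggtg
Rpl35: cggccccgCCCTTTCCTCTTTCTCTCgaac
Rpl15: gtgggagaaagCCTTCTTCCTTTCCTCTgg
Rpl13a: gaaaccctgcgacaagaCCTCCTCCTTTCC
Rplp2: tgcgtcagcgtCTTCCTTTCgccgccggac
Rps27: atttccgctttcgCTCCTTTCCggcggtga
Rps6: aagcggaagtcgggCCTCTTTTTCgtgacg
Rpl28: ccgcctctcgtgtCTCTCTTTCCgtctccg
These windows lie at chr7:118116133-118116162 (minus strand), chr2:39005117-39005146 (minus), chr14:18270972-18271001 (minus), chr7:45128731-45128760 (minus), chr7:141447636-141447665 (plus), chr3:90213634-90213663 (minus), chr4:86857353-86857382 (minus) and chr7:4792950-4792979 (plus), in the order printed.

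Of the 76 members, 56 were in the table of start sites. A C followed by 7 or more C or T, read on the strand of the gene, was present in 24 of these 56 windows (42.9%), against 2914 of 27025 windows of all genes (10.8%). The word CTTTCC was in 9 of 56 members (16.1%) against 1.67% of all genes, and CTCTTT was in 8 of 56 (14.3%) against 1.33%, both partly inside such runs. Read on the other strand, each word was in 0 of the 56 windows, against 1.48% and 1.17% of all genes. A window without a run shows only that these letters were not within 15 bases of that annotated start.

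The levels of the members spanned a wide range. Over all 60 libraries the highest were Rps14 with a mean of 184 RPKM, Rplp1 with 167 RPKM and Rpl32 with 163 RPKM, all 3 parts of the working ribosome (Rps14 in the small subunit, Rplp1 in the stalk that recruits elongation factors, Rpl32 in the large subunit). The lowest were Rps16 at 0.443 RPKM, Rpl29 at 0.481 RPKM and Rps23 at 0.527 RPKM, although their proteins are also part of every ribosome. No member was at 0 in any library, and 18 of the 76 had a mean below 10 RPKM.

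Low members shared more of their sequence with other genes. When coding sequences were split into 36-base words, the length of a trimmed read, the median share of words also found in another annotated gene was 100% for the 18 members below 10 RPKM and 85.8% for the 58 others. Across the 76 genes, Spearman's rho was -0.52 between mean RPKM and the number of annotated pseudogenes that share most of these words, and -0.47 between mean RPKM and the share of words in 10 or more other genes. These are descriptions across genes of 1 table. How reads that match several genes were assigned was not tested, so the level of a member with many copies is uncertain.

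The members stood much higher in later livers, in irradiated and in control mice alike. Their summed level was 4786 to 10452 RPKM at 4, 9 and 12 months (median 6226), against 1699 to 3209 RPKM at 1 and 2 months (median 2172). Every later library was above every earlier one, and the highest was 1 mouse of 16O at 9 months. As a share of all RPKM the members took 1.27% to 2.20% at 4 to 12 months (median 1.54%) and 0.595% to 0.935% at 1 and 2 months (median 0.768%), again without overlap.

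**Figure D1:**
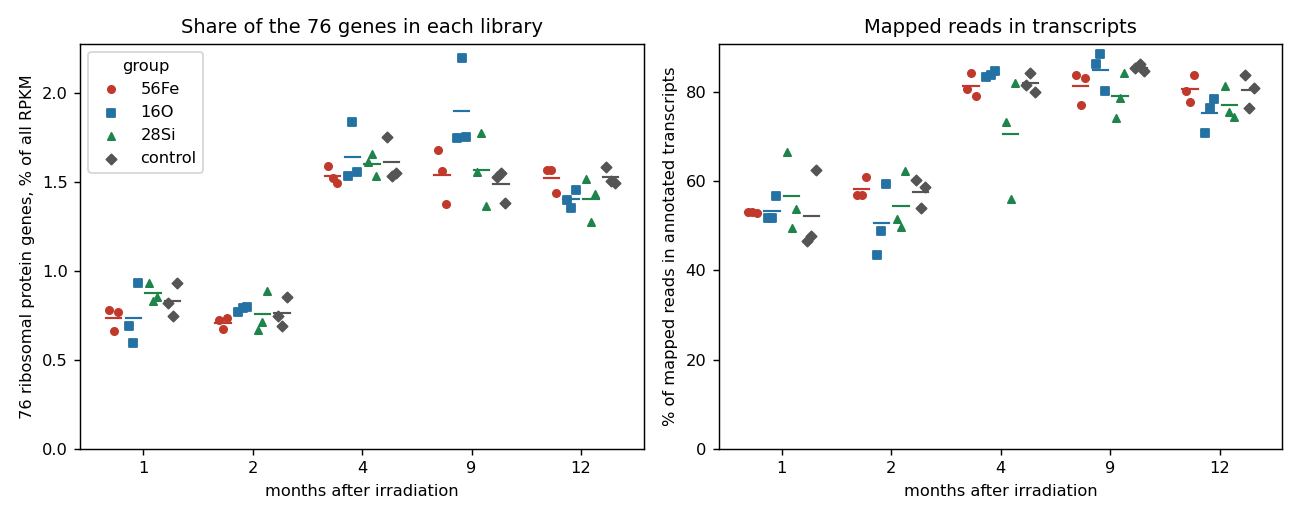
Share of the 76 ribosomal protein genes in the RPKM of each library (left, percent) and share of mapped reads in annotated transcripts (right, percent), by months after irradiation; points are mice, bars are means of 3. The members took 1.27% to 2.20% at 4 to 12 months and 0.595% to 0.935% at 1 and 2 months in all 4 groups, and the share of reads in transcripts moved with time as well.

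The step came between 2 and 4 months. In 56Fe the summed level averaged 2137 ± 136, 2294 ± 163, 6329 ± 315, 6233 ± 804 and 6105 ± 169 RPKM at 1, 2, 4, 9 and 12 months (SD, n = 3 each). In 16O it averaged 2172 ± 606, 2105 ± 446, 7150 ± 861, 8336 ± 1843 and 5316 ± 359 RPKM at the same times. In 28Si it averaged 2564 ± 575, 2218 ± 573, 5765 ± 783, 6410 ± 791 and 5385 ± 707 RPKM at the same times. In control mice it averaged 2300 ± 707, 2362 ± 360, 6774 ± 547, 6520 ± 599 and 6071 ± 552 RPKM. All 4 groups stood higher from 4 months on. The mean of 16O was the highest of the 4 groups at 9 months and the lowest at 12 months.

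The share of reads in transcripts moved with this step, and its part in it was not tested. Of the reads in transcripts the members took 0.481% to 0.865% at 4 to 12 months and 0.252% to 0.377% at 1 and 2 months. The later library with the fewest reads in transcripts was a 28Si mouse of 4 months (56.0%), whose members took 0.684% of those reads. The 1 and 2 month libraries with the most reads in transcripts were a 28Si mouse (66.4%) and a control mouse (62.4%) of 1 month, whose members took 0.374% and 0.377% of those reads. Both subunits stood higher in sum, with 2108 to 4707 RPKM for the small and 2678 to 5745 RPKM for the large at 4 to 12 months, against 691 to 1378 and 1003 to 1831 RPKM at 1 and 2 months. The ratio of small to large subunit RPKM was 0.758 to 0.829 at 4 to 12 months and 0.685 to 0.773 at 1 and 2 months, which overlapped.

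Each gene was then tested between 9 and 12 months (later) and 1 and 2 months (earlier) within a group, with limma on log2(RPKM + 0.1) over all 12731 genes kept and Benjamini-Hochberg adjustment, called at an adjusted p of at most 0.05. In all, 60 of 76 members were called in 56Fe, 60 in 16O, 62 in 28Si and 60 in control mice, where 52.6%, 58.2%, 47.2% and 53.5% of all genes were called. In 56Fe 58 members rose and 2 fell, where 36.3% of all genes rose and 16.3% fell. In 16O 58 rose and 2 fell (all genes 31.4% and 26.8%), and in 28Si 60 rose and 2 fell (32.1% and 15.1%). In control mice 57 rose and 3 fell (31.1% and 22.5%). The median log2 fold change of the members was 1.03 in 56Fe, 1.11 in 16O, 0.93 in 28Si and 0.96 in control mice, against medians of 0.17, 0.06, 0.15 and 0.09 over all genes tested.

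The calls fell on nearly the same members in each group. There were 56 members that rose in all 4 groups, 1 that fell in all 4, 4 that rose in 1 to 3 groups, 3 that fell in 1 to 3 groups and 12 with no call in any. Every library of 9 and 12 months was above every library of 1 and 2 months for 60 members in 56Fe, 55 in 16O, 59 in 28Si and 59 in control mice, where 41%, 29.4%, 27.8% and 35.2% of all genes were so separated. Over all 24 later and 24 earlier libraries this held for 48 of 76 members and 11.6% of all genes.

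The scaling of libraries changed the size of these medians but not their sign. Scaling by a trimmed mean removed a common later minus earlier shift of 0.35, 0.44, 0.31 and 0.42 on the log2 scale in 56Fe, 16O, 28Si and control mice. On RPKM as deposited the members' medians were 1.39, 1.55, 1.24 and 1.38, with 67, 66, 66 and 64 members called.

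Among small subunit members, Rps3, which sits at the mRNA entry of the ribosome, had 82.8 to 177 RPKM at 9 and 12 months (median 119), against 14.9 to 45.2 RPKM at 1 and 2 months (median 22.2). All 24 later libraries were above all 24 earlier ones. Its log2 fold change was 2.19 in 56Fe, 2.21 in 16O, 1.73 in 28Si and 1.67 in control mice, each with an SE of 0.15 and the largest adjusted p being 3.1e-12. Rps14, a protein of the small subunit platform, had 141 to 401 RPKM later (median 240) and 50.7 to 99.8 RPKM earlier (median 68.0), again with no overlap. Rps28 had 86.9 to 257 RPKM later (median 132) and 17.3 to 55.9 RPKM earlier (median 27), and Rps15a had 28.3 to 95.1 RPKM later (median 49.3) and 6.23 to 18.1 RPKM earlier (median 10.5). Rps7, a small subunit protein, had 29.5 to 105 RPKM later (median 58.6) and 9.56 to 19.3 RPKM earlier (median 13.1). These 3 were separated in every group.

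Rps4x, which is encoded on the X chromosome, rose in all 4 groups, with a log2 fold change of 1.68 in 56Fe and 1.50 in control mice (SE 0.13 each). It had 138 to 302 RPKM at 9 and 12 months (median 183), against 32.5 to 87.0 RPKM at 1 and 2 months (median 45.6). Rps19, the gene most often mutated in human Diamond-Blackfan anaemia, had 46.1 to 90.2 RPKM later (median 58.9) and 16.0 to 32.8 RPKM earlier (median 23). Rpsa, also known as the laminin receptor, had 120 to 242 RPKM later (median 152) and 57.6 to 95.5 RPKM earlier (median 71.7). Neither overlapped, and the smaller step of Rpsa (log2 fold change 0.68 to 0.78 over the 4 groups) fell to 0.26 in 28Si and 0.17 in control mice, with adjusted p of 0.076 and 0.25, when protein-coding transcripts alone were summed.

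Of the large subunit, Rpl41, the shortest ribosomal protein, showed one of the widest steps. It had 34.4 to 119 RPKM at 9 and 12 months (median 62.9), against 8.80 to 18.8 RPKM at 1 and 2 months (median 11.6). Its log2 fold change was 2.08 in 56Fe, 2.18 in 16O, 2.00 in 28Si and 2.06 in control mice (SE 0.13 each). Rpl22 had 76.5 to 207 RPKM later (median 118) and 14.5 to 42 RPKM earlier (median 23.5). Rpl5 and Rpl11, which together with 5S ribosomal RNA can hold the p53 ligase MDM2 in check, had 70.7 to 165 RPKM (median 114) and 76.7 to 156 RPKM (median 96.6) later, against 18.8 to 38.8 RPKM (median 25.1) and 28.0 to 62.2 RPKM (median 38) earlier. Both rose in every group, Rpl5 by 1.98 and Rpl11 by 0.91 on the log2 scale in 56Fe, and by 1.74 and 0.83 in control mice.

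Rpl10 joins the large subunit late, in the cytoplasm. Summed over all its transcripts it rose less, by 0.95 in 56Fe, 0.56 in 16O, 0.73 in 28Si and 0.44 in control mice on the log2 scale. It had 9.01 to 21.5 RPKM later (median 13.7) and 3.83 to 10.9 RPKM earlier (median 6.94), and only the control libraries overlapped within a group. This sum mixes kinds of transcript. Retained-intron transcripts took a median of 77.7% of Rpl10 at 1 and 2 months and 24.7% at 4 to 12 months. Its other transcripts averaged 1.47 RPKM at 1 and 2 months and 9.76 RPKM at 4 to 12 months. Rpl32 had 151 to 358 RPKM later (median 198) and 70.3 to 133 RPKM earlier (median 84.0), without overlap.

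The stalk proteins come next. Rplp0, the stalk base, had 107 to 222 RPKM later (median 149) and 39.4 to 89.4 RPKM earlier (median 55.2). Rplp1 had 167 to 368 RPKM later (median 214) and 52.4 to 119 RPKM earlier (median 74.1). Both were fully separated. Rplp2, the partner of Rplp1, had 34.6 to 73.8 RPKM later (median 40.5) and 23.4 to 55.8 RPKM earlier (median 33.4), which overlapped. Its log2 fold change was 0.02 in 56Fe, 0.24 in 16O, 0.15 in 28Si and -0.19 in control mice (adjusted p 0.88, 0.068, 0.29 and 0.15). The result for Rplp2 depends on the scaling and on the transcripts summed: without further scaling it passed in 56Fe, 16O and 28Si with 0.38, 0.68 and 0.46, and with relative log expression scaling it passed in control mice with -0.27. With protein-coding transcripts alone it passed in 16O with 0.55 (adjusted p 1.2e-05).

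Among the 12 members with no call were 2 with roles in signalling. Rps6, the substrate of S6 kinase, had 0.105 to 1.12 RPKM later (median 0.675) and 0.327 to 1.52 RPKM earlier (median 0.625). Rps27a, made as a fusion with ubiquitin, had 2.25 to 5.68 RPKM later (median 3.71) and 1.69 to 4.13 RPKM earlier (median 3.03). Over all groups both overlapped, although Rps27a was separated in 56Fe, and neither passed the test in any group. Summing protein-coding transcripts alone gave Rps27a a log2 fold change of 1.91 in 56Fe, 1.11 in 16O and 1.02 in control mice, each past the threshold.

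Rpl28 was the member that fell in all 4 groups (chosen here after its values were seen), with a log2 fold change of -0.99 in 56Fe, -1.21 in 16O, -1.17 in 28Si and -0.97 in control mice (adjusted p 0.019, 0.0041, 0.0073 and 0.021). It had 0.0886 to 1.14 RPKM later (median 0.699) and 0.519 to 2.21 RPKM earlier (median 1.12), which overlapped in every group, and 59.98% of its RPKM over all libraries lay in retained-intron transcripts. The call was lost in all 4 groups with protein-coding transcripts alone (-0.90 in 56Fe, -0.79 in 16O, -0.90 in 28Si and 0.07 in control mice, adjusted p 0.051, 0.083, 0.060 and 0.89). On RPKM as deposited it was lost in 56Fe (-0.69, adjusted p 0.092) and in control mice (-0.60, adjusted p 0.14). Rps16 fell in 56Fe only by the threshold (log2 fold change -0.76, adjusted p 0.035), and its values in the other groups were -0.41, -0.47 and -0.22 with adjusted p of 0.21 to 0.57. The call in 56Fe was lost on RPKM as deposited (-0.47, adjusted p 0.18) and with every gene above 0 tested (adjusted p 0.071).

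Across the 76 members the step went with level, taken as the mean over all 60 libraries. That mean includes the later libraries, so a member that rose has a higher mean by construction. The 0.1 added to RPKM also understates changes of low genes. The values below therefore describe the members and cannot show that level itself went with the step. The 58 members of 10 RPKM or more centred on 1.19 (0.05 to 2.08, log2 fold change, mean of the 4 groups), and the 18 below 10 RPKM on -0.02 (-1.08 to 1.12). Spearman's rho between mean RPKM and this fold change was 0.48 over the 76 genes. The median fold change was 0.92 in the 24 members with a run of C and T near the start and 1.02 in the 32 without one. The 29 members that carry an annotated small nucleolar RNA had a median of 0.87 and the 47 without one 1.05.

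**Figure D2:**
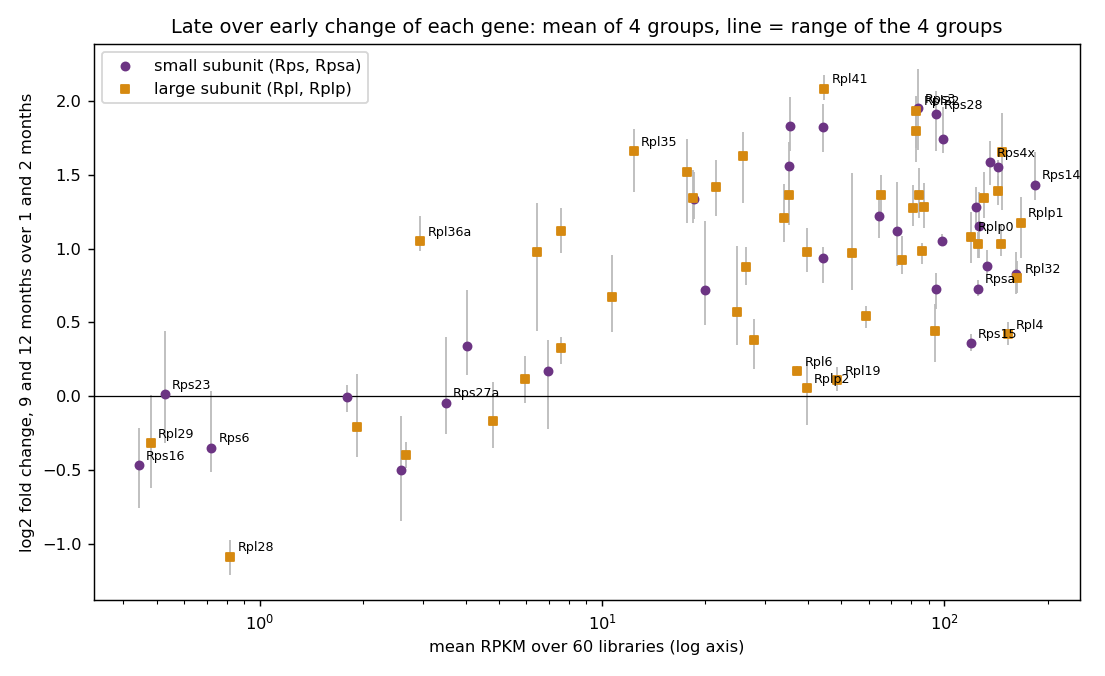
Log2 fold change of each of the 76 genes, 9 and 12 months over 1 and 2 months, against its mean RPKM over 60 libraries (log axis); points are means of the 4 groups and lines the range of the 4 groups, with small and large subunit members by colour. Members of 10 RPKM or more lay between 0.05 and 2.08, and those below between -1.08 and 1.12. The mean RPKM includes the later libraries, so the 2 axes are not independent.

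Other genes of the translation machinery were read beside the members. Of 8 tested ribosomal proteins and paralogues outside the symbol rule, 7 rose in 56Fe and 8 in each of 16O, 28Si and control mice, for example Fau, the ubiquitin-like fusion partner of a small subunit protein (log2 fold change 1.09 in 56Fe and 0.99 in control mice), and Rack1, the scaffold on the small subunit head (1.13 and 1.01). Of 18 translation factors and other mRNAs with the same 5′ tract, 14, 14, 12 and 12 rose and 1, 2, 1 and 2 fell in 56Fe, 16O, 28Si and control mice. Elongation factor Eef1a1 rose by 0.97 in 56Fe and 0.91 in control mice, while Tpt1, another mRNA of this class, fell by 0.42 and 0.60.

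Mitochondrial ribosomal proteins, which serve a separate ribosome, rose in 53, 58, 51 and 55 of 77 tested, with medians of 0.45, 0.50, 0.45 and 0.45, where 36.3%, 31.4%, 32.1% and 31.1% of all genes rose. Ribosome biogenesis factors went both ways, with 13, 10, 6 and 7 of 25 that rose and 2, 7, 4 and 6 that fell in 56Fe, 16O, 28Si and control mice, among them Ncl (nucleolin), which fell by 0.55 in 56Fe and 0.89 in control mice. Of 9 regulators of ribosome production and of these mRNAs, 1 rose in each group (Eif4ebp1, a brake on cap-dependent translation), and 0, 4, 2 and 5 fell. Of 8 small nucleolar RNA host genes that encode no ribosomal protein, 6, 3, 6 and 5 rose and 1 fell in each group (Snhg12). These lists were chosen with earlier results known, and their medians stand beside 0.17, 0.06, 0.15 and 0.09 for all genes. The rising counts of biogenesis factors in 28Si and control mice were below the share of all genes that rose. So were those of regulators in every group, and that of host genes in 16O was near it. Of all genes 16.3%, 26.8%, 15.1% and 22.5% fell in 56Fe, 16O, 28Si and control mice. The falling counts of biogenesis factors and host genes were near or below these shares. Counts near or below these shares say nothing particular to the lists. Above the shares were biogenesis factors that rose in 56Fe and 16O, and host genes that rose in 56Fe, 28Si and control mice. Regulators that fell in 16O, 28Si and control mice were above them too. The lists are short, and none was tested as a set.

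Markers of several other cell types moved with time too, and their part in the step was not tested. Endothelial markers summed to 41.9 to 80.995 RPKM at 9 and 12 months and 24.2 to 38.6 RPKM at 1 and 2 months. Stellate cell markers summed to 69.6 to 120.6 RPKM later and 35.6 to 67.7 RPKM earlier, also without overlap. Of single genes, 11.6% of all were so separated. The stellate sum rests most on Dcn (medians of 56.6 RPKM later and 29.9 RPKM earlier). Col1a1 in that list went the other way (0.373 and 0.811 RPKM), as did Lyve1 among the endothelial markers (0.616 and 0.866 RPKM). Cholangiocyte markers (7.603 to 17.5 and 6.87 to 16.5 RPKM) and proliferating-cell markers (0.521 to 10.4 and 0.666 to 4.04 RPKM) overlapped, with lower medians later. B and T cell markers overlapped as well (0.557 to 1.92 and 0.2101 to 1.25 RPKM). Kupffer cell markers summed to 78.0 to 760 RPKM at 9 and 12 months and 43.7 to 96.6 RPKM at 1 and 2 months, with 7, 8, 6 and 5 of 10 rising in 56Fe, 16O, 28Si and control mice. Erythroid genes summed to 96.0 to 350 RPKM later and 28.6 to 97.3 RPKM earlier, with 5, 5, 3 and 4 of 5 rising. Neutrophil markers summed to 1.68 to 105 RPKM later and 0.320 to 2.41 RPKM earlier, and Ly6g, the marker that defines them, was at 0 in 23 of 60 libraries. Hepatocyte markers summed to 24480 to 49864 RPKM later and 15993 to 30783 RPKM earlier, with 5, 3, 3 and 4 of 8 rising. These counts stand beside the same 36.3%, 31.4%, 32.1% and 31.1% of all genes that rose, and those of hepatocyte markers in 16O and 28Si are near it.

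The same step was seen between the neighbouring times 2 and 4 months, a contrast chosen after seeing the data. At 4 against 2 months 55 members rose and 0 fell in 56Fe, 59 rose and 3 fell in 16O, 56 rose and 0 fell in 28Si, and 59 rose and 1 fell in control mice, where 25.5%, 28.6%, 21% and 21.6% of all genes rose and 12.8%, 17.2%, 13.9% and 14.5% fell. Called in either direction were 55, 62, 56 and 60 members, against 38.3%, 45.8%, 34.9% and 36.1% of all genes. The median log2 fold change of the members was 1.12, 1.32, 0.98 and 1.07. Over all 5 times, an F test called 58 members in 56Fe, 63 in 16O, 64 in 28Si and 58 in control mice, against 47.4%, 58.6%, 52.5% and 52.2% of all genes.

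Whether an ion changed this course was tested directly. The later minus earlier difference of an ion minus that of the controls passed for 0 of 76 members with limma in 56Fe, 16O and 28Si (4, 8 and 6 at an unadjusted p below 0.05), where 0, 0.0314% and 0% of all genes passed. At that unadjusted p were 9.52%, 6.68% and 7.63% of all genes. The ion by time F test also passed for 0 members (1, 6 and 11 at an unadjusted p below 0.05), against 0.676%, 0.534% and 0.0393% of all genes, and for 1 member in 16O without 16O mouse 3 of 1 month. By this F test 11.8%, 10.3% and 9.87% of all genes were at an unadjusted p below 0.05. The median of the members' later minus earlier differences, ion minus control, was 0.10 in 56Fe, 0.14 in 16O and -0.02 in 28Si.

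Ion and control livers were then set against each other within a time, 3 mice against 3, at the same stated months. Collection dates are not given. In 14 of the 15 comparisons limma called 0 members, with 3 to 17 members at an unadjusted p below 0.05, where 2.12% to 26.4% of all genes were. Of all genes, 1.3%, 1.59% and 0.281% were called in 56Fe, 16O and 28Si at 1 month, 0, 0 and 0.126% at 2 months, 0.408% and 0 in 56Fe and 16O at 4 months, 3.61%, 1.01% and 0.124% at 9 months and 0, 0.00878% and 0.0176% at 12 months. Without control mouse 3 the count was 2 in 56Fe at 1 month and 1 in 56Fe at 9 months, and without 16O mouse 3 it was 1 in 16O at 1 month. In 16O at 1 month Rps10 also passed with the replicate block (adjusted p 0.022) and with all 60 libraries in the fit (adjusted p 0.031). The exception was 28Si at 4 months, where 4 of 73 tested members fell and 0 rose, against 0.231% of all genes that fell and 0.169% that rose (0.4% in all). The 4 are Rpl38, Rps29, Rpl31 and Rpl39, all of which encode small proteins.

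In the 14 comparisons without a call, the members with the largest log2 fold change up and down were these. At 1 month they were Rpl31 (0.48) and Rpl10 (-0.67) in 56Fe, Rpl38 (0.71) and Rps10 (-0.77) in 16O, and Rpl35 (0.74) and Rpl29 (-0.66) in 28Si. At 2 months they were Rps16 (0.98) and Rps23 (-1.67) in 56Fe, Rpl29 (1.003) and Rps15a (-0.49) in 16O, and Rps2 (0.39) and Rps23 (-0.80) in 28Si. Rps16, Rps23 and Rpl29 are the 3 lowest members, and Rps23 averaged 0.1996 RPKM in 56Fe livers and 0.840 RPKM in control livers at 2 months.

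At 4 months they were Rps27 (0.25) and Rps6 (-0.72) in 56Fe, and Rpl28 (0.44) and Rpl10 (-0.39) in 16O. At 9 months they were Rps2 (0.58) and Rps27 (-0.53) in 56Fe, Rpl12 (0.69) and Rps27 (-0.19) in 16O, and Rpl36a (0.63) and Rpl28 (-1.01) in 28Si. At 12 months they were Rps6 (0.45) and Rpl13 (-0.57) in 56Fe, Rpl28 (0.69) and Rpl38 (-0.91) in 16O, and Rpl23a (0.48) and Rpl13 (-0.84) in 28Si. The smallest adjusted p by limma among these 28 values was 0.071, for Rps2 in 56Fe at 9 months.

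Rpl38, which in mouse embryos is needed for the translation of Hox mRNAs, had 34.4, 28.8 and 37.1 RPKM in 28Si livers, against 102, 82.9 and 81.6 RPKM in control livers of 4 months. All 3 28Si mice were below all control mice, and the means were 33.4 ± 4.20 and 88.8 ± 11.4 RPKM (SD, n = 3 each). The log2 fold change was -1.32 (SE 0.12) with an adjusted p of 0.00041 by limma. It lay between -1.42 and -1.24 in every alternative run, with adjusted p up to 0.012.

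Rps29, a zinc-binding small subunit protein, had 104, 109 and 128 RPKM in 28Si livers, against 266, 230 and 220 RPKM in control livers (log2 fold change -0.99, SE 0.13, adjusted p 0.0079). Rpl31 had 30.8, 20.3 and 34.8 RPKM in 28Si livers, against 57.1, 58.2 and 54.5 RPKM in control livers (-0.93, SE 0.14, adjusted p 0.015). Rpl39 had 77.3, 55.9 and 73 RPKM in 28Si livers, against 124, 112 and 106 RPKM in control livers (-0.66, SE 0.12, adjusted p 0.042). In each the groups did not overlap. Without 28Si mouse 1 or mouse 2 only Rpl38 passed, and with replicate number as a block 1 member passed (adjusted p 0.095 for Rps29, 0.10 for Rpl31 and 0.19 for Rpl39). Over the alternatives, adjusted p ran from 0.00084 to 0.095 for Rps29, 0.0018 to 0.10 for Rpl31 and 0.029 to 0.19 for Rpl39.

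**Figure D3:**
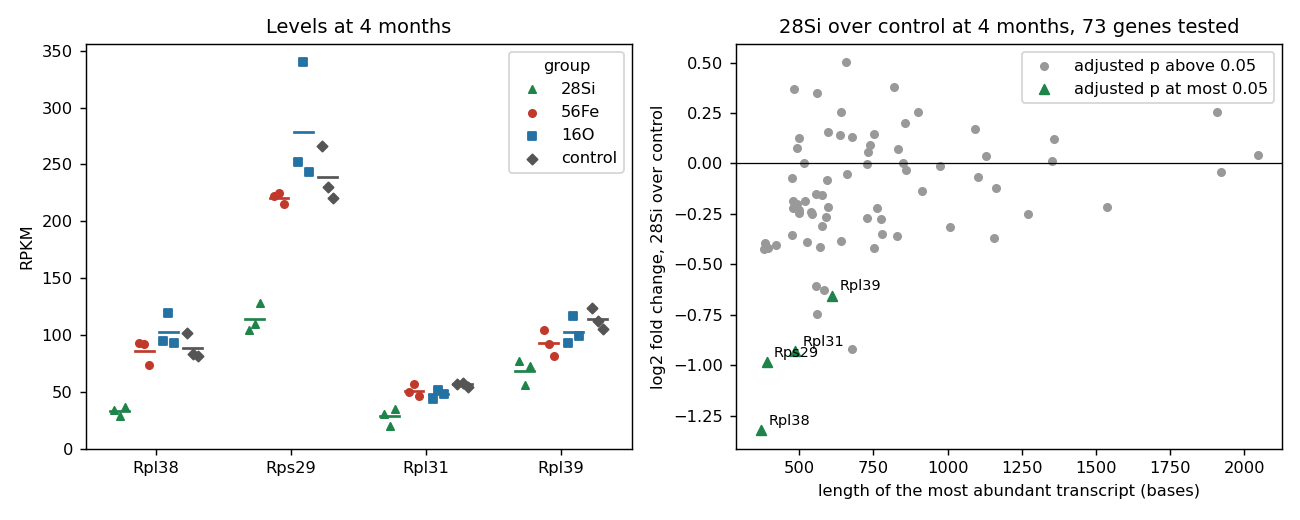
Left, RPKM at 4 months of the 4 genes that fell in 28Si against control (points are mice, bars means of 3, in 28Si, 56Fe, 16O and control); right, log2 fold change of 28Si over control at 4 months against the length of each gene's most abundant transcript in bases, 73 genes. Rpl38 had 28.8 to 37.1 RPKM in 28Si and 81.6 to 102 RPKM in control, and short transcripts lay lower.

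Within this comparison the fold change of the members went with transcript length. Spearman's rho between the log2 fold change of 28Si over control and the length of the most abundant transcript was 0.39 over 73 members and -0.05 over 11252 genes. Members under 400 bases had a median of -0.42 (5 members), against 0.06 over all 95 genes of that length. The 29 members of 400 to under 600 bases had a median of -0.22, against -0.19 over all 298 genes of that length, and members of 600 to under 1000 bases a median of -0.01 (26 members), against -0.07 over all 899 genes. The 28Si libraries of 4 months also had 56.0% to 82.0% of mapped reads in transcripts, against 80.0% to 84.1% in the controls, and Kupffer markers of 86.2 to 108 RPKM against 151 to 174 RPKM, with 0 of 10 markers higher, a median of -0.66 and 1 that fell. Erythroid genes summed to 141 to 156 RPKM against 177 to 185 RPKM. Ribosomal protein pseudogenes (6 in the table) summed to 1.44 to 2.40 RPKM in 28Si livers and 0.123 to 0.331 RPKM in control livers. The part of these differences in the 4 calls was not tested.

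Rpl38 stood lower after 28Si at 2, 9 and 12 months as well, but not past the test. It had 18.6, 16.7 and 22.6 RPKM in 28Si livers at 2 months against 22, 26.3 and 29.3 RPKM in control livers, and 42.9, 69.6 and 49.9 RPKM at 9 months against 90.5, 93.6 and 71.4 RPKM. At 12 months it had 50.0, 44.9 and 46.5 RPKM against 98.0, 73.9 and 78.3 RPKM. The log2 fold changes were -0.41, -0.65 and -0.80 with adjusted p of 0.49, 0.24 and 0.35. At 1 month it was 0.37 (adjusted p 0.39). The 28Si and control livers overlapped at 2 months. Lower values of Rpl38 were not limited to 28Si. In 16O at 12 months it had 41.8 ± 5.93 RPKM against 83.4 ± 12.8 RPKM in control livers, without overlap. That log2 fold change was -0.91, also not past the test.

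In 16O at 9 months the members were shifted together without any that passed. Of 75 tested, 72 were higher than in control livers, and the median was 0.29 on the log2 scale, against -0.00 over all genes. By limma 17 were at an unadjusted p below 0.05, against 14.9% of all genes, and the smallest adjusted p was 0.097. At 12 months 48 of 75 were lower in 16O, with a median of -0.11 against -0.02 over all genes, and 58 of 74 were lower in 28Si, with a median of -0.15 against -0.00. In 28Si 15 were at an unadjusted p below 0.05 by limma, against 7.19% of all genes, and 0 were called. The 16O livers of 9 months had a summed 7478, 10451 and 7080 RPKM, against 6857, 6874 and 5828 RPKM in control livers, so that all 3 were above the controls and mouse 2 was the highest of all 60.

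Pairs of ions were tested in 1 fit per time, over its 12 libraries. The 28Si livers of 4 months again stood apart. In 56Fe over 28Si 4 of 76 members rose (Rpl38, Rpl24, Rps29 and Rpl31) and 0 fell, where 0.611% of all genes rose and 0.318% fell (0.929% in all). In 16O over 28Si 8 rose (the same 4 and Rps20, Rpl36, Rplp2 and Rps28) and 0 fell, where 0.43% rose and 0.146% fell (0.577% in all). These 2 comparisons share the 28Si libraries with each other and with the comparison above.

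Rpl24, a large subunit protein at the subunit interface, had 7.43, 8.63 and 8.09 RPKM in 56Fe livers and 7.70, 9.71 and 6.68 RPKM in 16O livers, against 3.34, 2.62 and 5.09 RPKM in 28Si livers at 4 months. The log2 fold change over 28Si was 1.11 for 56Fe and 1.09 for 16O (SE 0.19, adjusted p 0.017 and 0.023). Rps20 had 105, 128 and 116 RPKM in 16O livers, against 74.2, 50.6 and 74.7 RPKM in 28Si livers (log2 fold change 0.78, adjusted p 0.010). With protein-coding transcripts alone Rps20 had 0.09 (adjusted p 0.76). Rps20-201, a retained-intron transcript, carried 85.9% of its RPKM over all libraries. Neither gene overlapped between the groups compared. Leaving out 1 library moved the count in 16O over 28Si to between 2 and 14, with 2 without 16O mouse 2, 3 without 16O mouse 1 or 28Si mouse 1 or 2, 13 without 28Si mouse 3 and 14 without 16O mouse 3.

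At other times few members differed between ions. At 1 month Rpl9, Rpl15 and Rps7 fell in 56Fe against 28Si (log2 fold change -0.73, -0.73 and -0.52), where 6.42% of all genes fell and 2.98% rose (9.4% in all), so the 3 of 76 are below the background. In 16O against 28Si at 1 month Rpl13 and Rps10 fell (-0.96 and -0.94) and Rpl36 rose (0.67), where 6.3% of all genes fell and 5.8% rose (12.1% in all). Rps10 had 6.32, 6.98 and 10.6 RPKM in 16O livers, against 15.8, 15.3 and 16.7 RPKM in 28Si livers, without overlap. At 2 months Rpl10 and Rpl21 fell in 56Fe against 16O (-0.96 and -1.02, with 0.174% of all genes lower and 0.13% higher, 0.304% in all), and Rpl10 and Rpl27a rose in 16O against 28Si (0.67 and 0.79, with 0.99% higher and 0.156% lower, 1.15% in all). With protein-coding transcripts alone these 4 values were -0.18 and -0.32 for Rpl10 and Rpl21 in 56Fe against 16O (adjusted p 0.85 and 0.64), and -0.50 and 0.31 for Rpl10 and Rpl27a in 16O against 28Si (adjusted p 0.46 and 0.39), so the direction of Rpl10 turned there. At 9 months Rpl23a rose in 16O against 28Si (1.11, with 0.366% higher and 0.187% lower, 0.553% in all). Leaving out single libraries ended most of these: the counts ran from 0 to 1 for 56Fe against 28Si at 1 month (1 without 56Fe mouse 1, 0 without each other mouse), 1 to 16 for 16O against 28Si at 1 month (1 without 16O or 28Si mouse 1, 16 without 16O mouse 3), 0 to 5 for 56Fe against 16O at 2 months (0 without 56Fe mouse 2 or 3 or 16O mouse 2, 1 without 56Fe or 16O mouse 1, 5 without 16O mouse 3), 0 to 6 for 16O against 28Si at 2 months (0 without 16O or 28Si mouse 1 or 2, 4 without 28Si mouse 3, 6 without 16O mouse 3) and 0 to 1 for 16O against 28Si at 9 months (1 only without 16O mouse 3).

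In the remaining 8 comparisons of ions limma passed 0 members, with 2 to 40 at an unadjusted p below 0.05. At that unadjusted p were 2.11% to 14.98% of all genes. Of all genes, 0.321%, 0.0688%, 0 and 0 were called in 56Fe against 16O at 1, 4, 9 and 12 months, 0.834%, 0.34% and 0 in 56Fe against 28Si at 2, 9 and 12 months, and 0 in 16O against 28Si at 12 months. In 56Fe against 28Si the count was 1 at 2 months without 56Fe mouse 1 or 28Si mouse 3, and 1 at 9 months without 28Si mouse 3. The 40 belong to 56Fe against 16O at 9 months, where 72 of 75 members were lower in 56Fe. The median of the members was -0.42 on the log2 scale, with a smallest adjusted p of 0.23. In that comparison 13.03% of all genes were at an unadjusted p below 0.05. Of all genes 48.51% were higher in 56Fe, with a median of -0.01.

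The members furthest apart in these 8 comparisons were Rps10 (0.41) and Rps23 (-0.65) in 56Fe over 16O at 1 month, Rps2 (0.29) and Rpl28 (-0.77) at 4 months, Rps2 (0.33) and Rps23 (-1.02) at 9 months and Rps6 (0.79) and Rpl28 (-0.51) at 12 months, on the log2 scale. In 56Fe over 28Si they were Rpl36 (0.85) and Rps23 (-0.88) at 2 months, Rpl23a (0.83) and Rps23 (-0.98) at 9 months and Rps15a (0.60) and Rpl24 (-0.30) at 12 months. In 16O over 28Si at 12 months they were Rpl27 (0.70) and Rps6 (-0.59). Rpl36 had the smallest adjusted p by limma, 0.058, and passed with the replicate block (0.013), with all 60 libraries in the fit (0.017) and with protein-coding transcripts alone (0.039). Rpl23a in 56Fe over 28Si at 9 months passed with all 60 libraries (0.038).

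The transcripts of a gene were compared by their share of the gene's RPKM, tested with limma on the log2 ratio of a transcript to the rest of its gene. The shares rest on how reads common to several transcripts were split in the mapping. Rps14 held most of the calls between an ion and control, all in 28Si. Ions were not tested against each other for shares. Rps14 has 10 annotated transcripts, and most of its RPKM came from 2 of them, Rps14-201 of 597 bases and the shorter Rps14-205 of 444 bases. Of the 36-base words of Rps14-205, 24 of 409 are in no other Rps14 transcript, and of those of Rps14-201, 1 of 562.

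In 28Si livers Rps14-205 was listed at 0 in 8 of the 9 libraries of 1, 2 and 9 months and made up 8.28% of Rps14 in the ninth. In the 45 libraries of 56Fe, 16O and control mice it made up 15.8% to 58.9%. At 4 months its share was 15.2%, 9.08% and 14.7% in 28Si livers, against 58.9%, 49.9% and 50.5% in control livers. At 9 months it was at 0 in all 3 28Si livers, against 49.6%, 51.9% and 50.6% in control livers. At 12 months it came to 34.1%, 8.93% and 27.8% in 28Si livers, against 51.4%, 58.3% and 47% in control livers. The groups did not overlap at any of the 5 times.

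**Figure D4:**
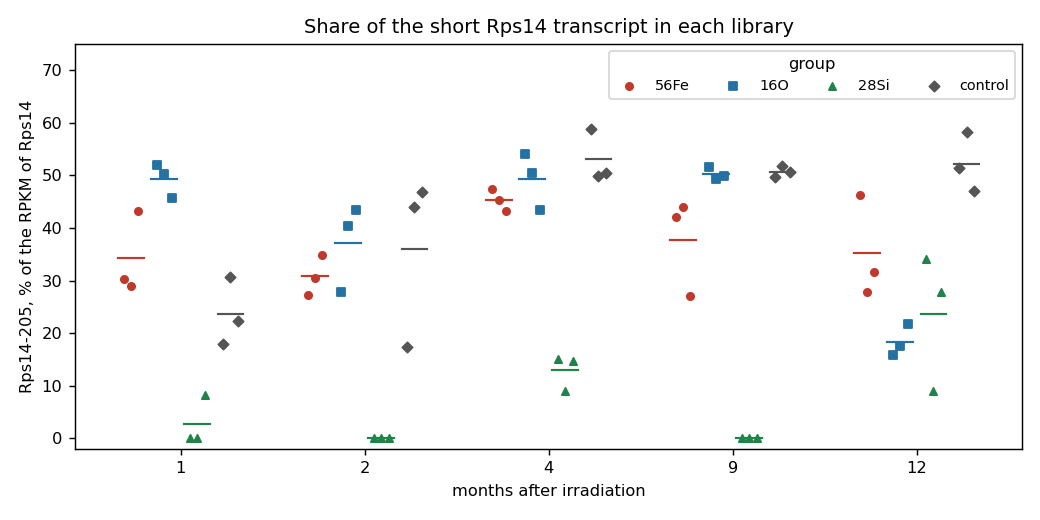
Share of Rps14-205, the 444-base transcript, in the RPKM of Rps14 (percent) by months after irradiation; points are mice and bars means of 3, for 56Fe, 16O, 28Si and control. In 28Si 8 of 9 libraries of 1, 2 and 9 months were at 0, and 16O lay between 15.8% and 21.7% at 12 months.

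Tested over all transcripts, Rps14-205 fell in 28Si against control at 2 months (adjusted p 0.042), where its share was 0 in 28Si livers and 36% ± 16.2 in control livers. It fell at 4 months (13% ± 3.38 against 53.1% ± 5.03, log2 ratio change -2.96, adjusted p 0.048) and at 9 months. Rps14-201 rose at 4 months (85.8% ± 3.06 against 45.2% ± 4.97, log2 ratio change 2.89, adjusted p 0.043) and at 9 months (98.7% ± 0.096 against 47.8% ± 1.08, log2 ratio change 6.31). At 9 months the adjusted p ran from 6.4e-06 to 0.11 over the alternatives for Rps14-201. The summed level of Rps14 did not pass between 28Si and control at any time, so these are differences in share. At 1 and 12 months Rps14-205 did not pass.

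One other member transcript was called, Rpl13a-207, at 0, 0 and 0.213% of Rpl13a in 28Si livers against 3.26%, 2.91% and 4.31% in control livers of 4 months (adjusted p 0.048). In all, 1 of 223, 3 of 239 and 2 of 223 member transcripts passed at 2, 4 and 9 months in 28Si, where 0.0448%, 0.27% and 0.156% of all transcripts passed. In the other 12 comparisons of an ion with control limma called 0, with 14 to 34 at an unadjusted p below 0.05, and 1 in 28Si at 1 month without 28Si mouse 3. At that unadjusted p were 5.04% to 8.53% of all transcripts. Of all transcripts, 0, 0 and 0.139% were called in 56Fe, 16O and 28Si at 1 month, 0.0901% and 0.00378% in 56Fe and 16O at 2 months, 0 and 0.0322% at 4 months and 0.0869% and 0.00468% at 9 months, and 0.0393%, 0 and 0 in 56Fe, 16O and 28Si at 12 months. Without any 1 of the 6 libraries the count was 0 at 2 months and 0 at 4 months, and at 9 months 1 without any of the 3 controls. With replicate number as a block it was 0 at all 3 times.

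In 16O livers Rps14-205 made up 45.6% to 51.9% of Rps14 at 1 month, against 17.99% to 30.7% in control livers, so that 16O was higher without overlap (log2 ratio change 1.67, adjusted p 0.50). The shares of 16O and control livers overlapped at 2, 4 and 9 months. At 12 months 16O was lower, at 15.8%, 17.6% and 21.7% against 51.4%, 58.3% and 47% in control livers, which did not overlap. The comparison at 12 months did not pass on its own (log2 ratio change -2.29, adjusted p 0.15). In 56Fe livers it made up 43.3% to 47.4% at 4 months, 27.2% to 44% at 9 months and 27.8% to 46.4% at 12 months, against 49.9% to 58.9%, 49.6% to 51.9% and 47% to 58.3% in control livers, without overlap, and none of these passed. The later minus earlier change of Rps14-201 in 16O minus that in control passed, with a log2 ratio difference of 2.22 (SE 0.45, adjusted p 0.038), as 1 of 360 member transcripts, against 0.038% of all 39508 transcripts. In 56Fe and 28Si limma called 0 of 360 (40 and 37 at an unadjusted p below 0.05), against 0.0607% and 0.18% of all transcripts. At that unadjusted p were 7.75% and 10.1% of all transcripts. The 16O call was lost without any 1 of 16 libraries: 16O mouse 1 of 1 month, mice 2 and 3 of 2 months, all 3 of 9 months and mice 1 and 2 of 12 months, and control mice 1 and 3 of 1 month, mouse 1 of 2 months, all 3 of 9 months and mice 1 and 2 of 12 months. The count was 2 without control mouse 3 of 12 months, and adjusted p for Rps14-201 ran from 0.016 to 0.096 over the alternatives.

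Later and earlier livers differed in the kinds of transcripts read from these genes. Transcripts annotated with a retained intron took 2.44% to 5.08% of the members' RPKM at 4 to 12 months (median 3.27%), against 4.62% to 10.3% at 1 and 2 months (median 7.07%), which overlapped slightly. In all other protein-coding genes they took 1.71% to 2.97% at 4 to 12 months and 3.43% to 9.01% at 1 and 2 months, without overlap. Of 61 members with such a transcript, 57 had a lower median share later, and in 3 (Rpl10, Rpl30 and Rps24) every later library was below every earlier one. No matching counts were made over all genes. In all other protein-coding genes the median share was 2.09% at 4 to 12 months and 5.04% at 1 and 2 months. The lower share was therefore not particular to the members.

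**Figure D5:**
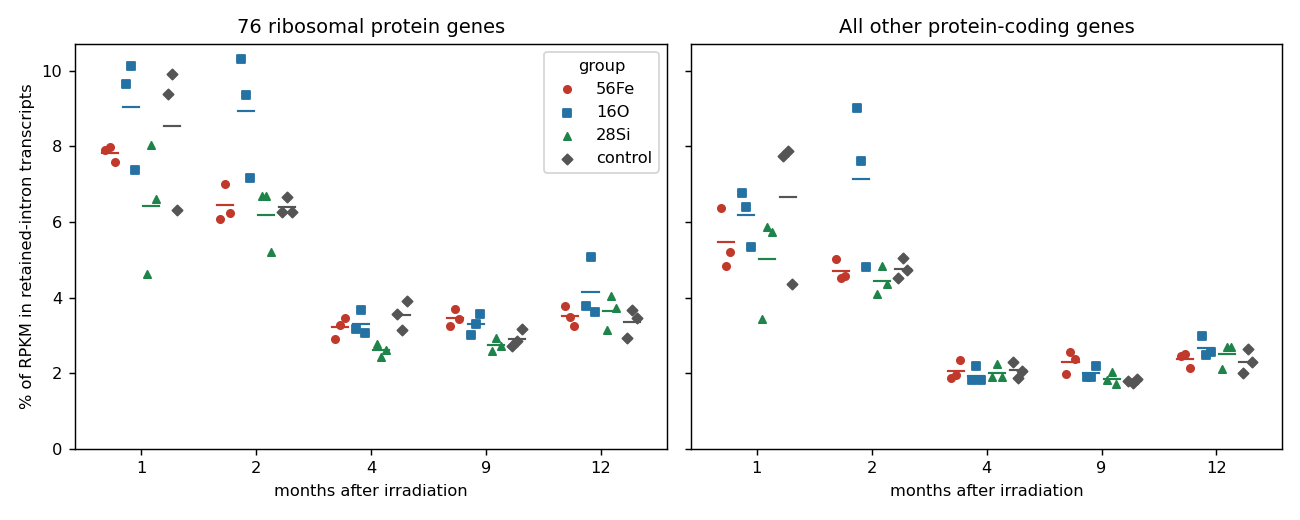
Share of RPKM in transcripts annotated with a retained intron (percent) in the 76 genes (left) and in all other protein-coding genes (right), by months after irradiation; points are mice and bars means of 3. The members took 2.44% to 5.08% at 4 to 12 months and 4.62% to 10.3% at 1 and 2 months. All other protein-coding genes took 1.71% to 2.97% and 3.43% to 9.01%.

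In Rpl10, for example, retained-intron transcripts took 16.7% to 44.5% of RPKM at 4 to 12 months (median 24.7%) and 55.3% to 91.9% at 1 and 2 months (median 77.7%). The mean RPKM of these transcripts was 3.56 later and 5.32 earlier, while that of all its other transcripts, coding or not, was 9.76 later and 1.47 earlier. In Rpl5 the same shares were 4.41% to 21.1% (median 10.3%) and 17.6% to 65.3% (median 42.9%), which overlapped.

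Of 360 member transcripts tested between 9 and 12 and 1 and 2 months, 66 rose and 170 fell in share in 56Fe, 76 and 188 in 16O, 63 and 153 in 28Si, and 77 and 188 in control mice. Over all transcripts 18.4% rose and 32.3% fell in 56Fe, 19.3% and 35.1% in 16O, 13.9% and 26.8% in 28Si, and 18.5% and 34.2% in control mice. By kind, 86, 102, 89 and 98 of 126 retained-intron transcripts fell and 2, 2, 3 and 2 rose in 56Fe, 16O, 28Si and control mice. Of 43 non-coding processed transcripts 28, 30, 24 and 28 fell and 0 rose, and of 170 protein-coding transcripts 60, 68, 55 and 69 rose and 48, 49, 36 and 54 fell. Counts by kind were not made over all transcripts, so these are not read as particular to the members.

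Single transcripts changed hands within a gene. Rps18-201, a coding transcript of a small subunit head protein, made up 49.03% ± 6.30 of Rps18 later and 1.39% ± 3.42 earlier in 56Fe, and 55.1% ± 12.1 later and 1.32% ± 2.05 earlier in control mice (SD, n = 6 each). In 16O it was at 0 in every earlier library and at 42.6% to 61.2% later. In 28Si it was already at 37.2%, 9.09% and 17.6% at 1 month and 10.6%, 0 and 13.5% at 2 months. Its later share in 28Si was 32.7% to 86.3%, which overlapped. Rpl41-203 made up 40.8% ± 3.85 of Rpl41 later and 2.33% ± 5.71 earlier in 56Fe, and 44.5% ± 4.28 and 0.636% ± 1.06 in control mice. Rpl10-205 made up 33.9% ± 9.28 of Rpl10 later and 4.50% ± 3.57 earlier in 56Fe, and 34.5% ± 6.08 and 6.51% ± 7.32 in control mice. All 3 rose in 56Fe and in control mice. Single transcripts were named here only where later and earlier libraries of a group did not overlap. Their separation was therefore set by that choice and is not a result.

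Rpl5-204, a retained-intron transcript, fell to 2.25% ± 0.937 of Rpl5 later in 56Fe, against 26.0% ± 2.78 earlier, and to 2.65% ± 1.24 in control mice, against 19.2% ± 2.34. Rpl10a-213, a processed transcript of Rpl10a, made up 0.706% ± 1.39 later and 20.6% ± 6.89 earlier in 56Fe. In control mice it was at 0 in all 6 later libraries and at 21.8% ± 11.5 earlier. Rps26-202 went the other way although it is annotated as a retained-intron transcript, with 89.9% ± 3.54 of Rps26 later and 63.8% ± 17.6 earlier in 56Fe, and 90.3% ± 2.75 and 67.6% ± 9.63 in control mice.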

How the data were processed

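Liver RNA of 60 mice was sequenced in paired reads after ribosomal RNA removal. Per the study's methods, the authors removed the first 14 bases of each read, mapped to GRCm38 with annotation 97 in CLC Genomics Workbench 12.0.3, tested counts with edgeR and deposited RPKM per transcript. The deposited group means were not used, and count files were not used here.

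RPKM values were summed per gene, scaled by an unweighted trimmed mean (30% of ratios, 5% of levels) and tested with limma 3.58.1 in R 4.3.3, with a trend, on log2(RPKM + 0.1), which understates changes of low genes. Genes needed 0.5 RPKM in 3 libraries of a fit, and p-values were adjusted over all genes tested. An ion was compared with control over the 6 libraries, ions over the 12 libraries of a time, and times over all 60. Transcript shares were tested as the log2 ratio of a transcript to the rest of its gene, in genes of 0.5 RPKM or more in every library. Functions were tested on simulated data. Transcript classes came from GENCODE M21 (GRCm38), an earlier release, which matched 123380 of 123811 transcripts and all 472 of the members.

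Depth was recovered from the steps of low RPKM values, of which 99.8% to 100.0% were whole reads within 0.02 reads. Replicates are separate mice, so p-values measure the spread between these mice. Replicate numbers paired samples by correlation of deviations in 16O against control at 12 months alone (0.334, 0.517 and 0.248), and no label states a pairing.

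Members and lists were chosen with earlier results of these data known. Named were, per comparison, up to 5 called members per direction with the largest fold and no overlap, or, where none was called, the members of largest fold up and down. Also named were 12 members set by role, the 3 highest and 3 lowest by mean level, and up to 5 called transcripts per direction. For later against earlier, these transcripts were taken only from those without overlap. Members shown with sequences, and Rpl28, were chosen after their values were seen, as were the contrast of 4 with 2 months and the later minus earlier difference between ion and control. Alternatives were other scalings, filters and pseudocounts, protein-coding transcripts alone, sequence copies added, all libraries in 1 fit, a replicate block and leaving out each library.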

Additional observations from a re-analysis of the deposited data

Results flagged for a closer look

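The later (9 and 12 months) minus earlier (1 and 2 months) change in the share of Rps14-201 differed between 16O and control mice, with a log2 ratio difference of 2.221 (SE 0.45, adjusted p 0.038 by limma). The interaction term itself was tested. Its value ran from 1.94 to 2.37 over the alternatives, with adjusted p of 0.016 to 0.096.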

How the results depend on the processing

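In the later against earlier comparison the called members numbered 58 to 62 in 56Fe, 57 to 62 in 16O, 59 to 63 in 28Si and 57 to 61 in control mice when 1 library was left out, and 4 against 2 months gave 53 to 58, 59 to 63, 53 to 58 and 55 to 59. The replicate block changed no count there. In 16O against control at 12 months, where the numbers paired the mice, it left 0 members and 0 member transcripts called, as without it. The small counts moved more, and the cause was not tested. With the replicate block the counts were 1 in 28Si against control at 4 months, 1 in 16O against control at 1 month, 5 and 10 in 56Fe and 16O against 28Si at 1 month, 2 in 56Fe against 28Si at 2 months, 4 in 16O against 28Si at 4 months, 1 and 5 in 56Fe and 16O against 28Si at 9 months, and 0 member transcripts in 28Si at 2, 4 and 9 months. With all 60 libraries they were 1 in 16O against control at 1 month, 5 and 6 in 56Fe and 16O against 28Si at 1 month, 1 and 6 at 2 months and 2 and 9 at 9 months, and 1 in 56Fe against 16O at 2 months. With protein-coding transcripts alone they were 1 in 28Si against control at 1 month, 5 and 9 in 56Fe and 16O against 28Si at 1 month, 3 and 0 at 2 months, 5 at 4 months and 0 at 9 months in 16O against 28Si, 0 in 56Fe against 16O at 2 months, and 1 for 16O by time. With relative log expression they were 0 and 5 in 56Fe and 16O against 28Si at 1 month, 0 in 16O against 28Si at 2 and at 9 months, and 1 for 16O by time. As deposited they were 0 in 56Fe against 28Si at 1 month, 1 in 56Fe against 16O at 2 months, and 0, 5 and 3 in 16O against 28Si at 2, 4 and 9 months. With every gene above 0 they were 0 in 56Fe against 28Si at 1 month, 0 in 56Fe against 16O at 2 months, and 0, 5 and 0 in 16O against 28Si at 2, 4 and 9 months. For transcript shares, a pseudocount of 1 gave 7 in 28Si at 4 months and 2, 2 and 3 for the later minus earlier difference of 56Fe, 16O and 28Si minus control, and the stricter filter (gene sum of 1 RPKM, share of 1 percent) gave 0 in 28Si at 4 months.

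Leaving out 1 library gave 1 to 4 members in 28Si against control at 4 months, 0 to 2, 0 to 1 and 0 to 1 in 56Fe and 16O at 1 month and 56Fe at 9 months against control, 0 to 1 and 1 to 16 in 56Fe and 16O against 28Si at 1 month, 0 to 1 and 0 to 6 at 2 months, 3 to 6 and 2 to 14 at 4 months and 0 to 1 in each at 9 months, 0 to 5 in 56Fe against 16O at 2 months and 0 to 1 for 16O by time. For transcript shares it gave 0 to 1, 0 to 0, 0 to 0 and 1 to 2 in 28Si at 1, 2, 4 and 9 months, and 0 to 1, 0 to 2 and 0 to 2 for the later minus earlier difference of 56Fe, 16O and 28Si minus control. Where an arm held 2 mice the spread was pooled.

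Directions turned for Rpl10 and for members below 10 RPKM. With protein-coding transcripts alone Rpl10 was -0.50 in 16O against 28Si at 2 months, Rps27a was 1.11 in 16O and 1.02 in control later against earlier, Rps23 was 1.40 in 16O later against earlier and 0.11 in control at 4 against 2 months, and Rpl28 was 0.0743 in control. With sequence copies added, an alternative chosen after seeing the data, Rpl29 was -0.40 in 28Si and Rps23 was 0.45 in control. Members below 1 RPKM rest on few reads, and depth limits what can be read from them.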
